A study of Mus musculus with 6 samples.

Results

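Relaxin is a peptide hormone that counters scarring, and RXFP1 is the receptor through which it acts on fibroblasts and vascular cells. Nitric oxide, made by the NO synthases, activates soluble guanylate cyclase, which makes cyclic GMP. Cyclic GMP activates protein kinase G and is broken down by phosphodiesterase 5. In kidney these steps set the tone of vessels and mesangial cells, and relaxin signalling in myofibroblasts is known to run through nitric oxide and cyclic GMP. The genes described here are Rxfp1, the cyclase subunit genes Gucy1a1 and Gucy1b1, the kinase gene Prkg1, the phosphodiesterase gene Pde5a, and the NO synthase genes Nos1, Nos2 and Nos3. They are 8 of the 33679 genes in the expression table, found there by gene name, 1 row each.

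All kidneys had been injured by unilateral ureteral obstruction, in which 1 ureter is closed and the kidney scars, and messenger RNA was sequenced. The groups are Cd248 knockout mice, labelled Cd248 KO and called KO hereafter, and mice labelled Wild type. Cd248 encodes endosialin, a surface protein of fibroblasts and pericytes. The labels name 3 samples of each genotype, and values were used for knockout replicate 1 and wild type replicates 1, 2 and 3. The other knockout samples were not analysed here, and no unobstructed kidney is among the samples. The labels give no strain, age, sex or time after surgery, and do not say whether the knockout was confined to a cell type. They describe the RNA as pooled, and nothing says that replicates were separate animals, so any p-value measures only the spread between these libraries. Levels are FPKM, that is, fragment numbers per length of transcript and per mapped fragments of a library.

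The 8 genes were chosen with the difference between the knockout library and the wild type libraries already known, so that difference is described here for them and not tested. With 1 library against 3, an exact permutation test of a single gene could not go below p = 0.25. Cd248 was listed at 0 FPKM in the KO library and at 8.78 to 9.57 FPKM in the wild type libraries. The knockout library also differed in its makeup. Immunoglobulin genes took 5.98% of its FPKM total, against 0.113% to 0.202% in wild type. Of 9 plasma and B cell markers tested, 5 were called higher, Jchain, Mzb1, Pou2af1, Derl3 and Cd79a (0.64% of genes tested were), and 1 to 2 when a wild type library was left out. Their median difference was 1.79, or 1.07 with no filter on low values and 2.52 with a pseudocount of 0.1 FPKM. Of the 9, 8 lay above every wild type library (28% of genes tested did). The other, Sdc1, lay below every wild type library, at 18.52 FPKM against 32.06, 23.99 and 19.24 FPKM. Proximal tubule markers were summed without Kap, which made up most of their sum. The rest summed to 476 FPKM in the KO library and to between 187 and 522 FPKM in wild type. All 10 were above 0 in every library. Their median difference was 0.56, or 0.18 without wild type replicate 1 and 0.84 without wild type replicate 3. Of the 10, 3 lay above every wild type library and 0 were called.

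Sequence upstream of the cyclase genes and Prkg1 is shown to give the context of the core of the pathway. RefSeq promoter entries (GRCm38.p6) matched 5 of the 8 genes, and the 3 shown are those with at least 100 bases upstream of both annotated starts. Each run reads 5′ to 3′ on the strand of the gene and lies wholly upstream of the gene start in both RefSeq and GENCODE M21. Capitals mark GGGCGG, the GC box, and CCAAT, the CCAAT box, found on either strand, so ATTGG is a CCAAT on the opposite strand. No marked motif overlaps another.
Gucy1b1, chr3:82074712-82074961, minus strand: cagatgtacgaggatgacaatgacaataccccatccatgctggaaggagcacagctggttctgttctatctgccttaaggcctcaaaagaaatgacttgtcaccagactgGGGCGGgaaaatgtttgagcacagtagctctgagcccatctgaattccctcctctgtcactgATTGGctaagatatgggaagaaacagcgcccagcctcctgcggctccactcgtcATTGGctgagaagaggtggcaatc
Gucy1a1, chr3:82145790-82145900, minus strand: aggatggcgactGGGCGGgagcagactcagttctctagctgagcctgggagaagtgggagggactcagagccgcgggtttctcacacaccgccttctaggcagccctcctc
Prkg1, chr19:31765034-31765283, minus strand: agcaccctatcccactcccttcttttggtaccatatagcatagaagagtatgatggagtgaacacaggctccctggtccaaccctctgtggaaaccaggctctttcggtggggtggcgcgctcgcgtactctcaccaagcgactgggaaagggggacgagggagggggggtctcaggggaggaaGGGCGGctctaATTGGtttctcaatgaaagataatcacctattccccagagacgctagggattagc

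Each window held 1 GC box. Gucy1b1 held 2 CCAAT boxes, Prkg1 held 1 and Gucy1a1 held 0. Of 32851 RefSeq promoter windows of 250 bases, 32.7% held GGGCGG and 33.8% held CCAAT. Over the same 111 bases as for Gucy1a1, those shares were 11.7% and 15%. A match is a description of letters, and the transcription factors were not measured.

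Rxfp1 stood far below its wild type level in the KO library, and the 7 other genes lay closer to theirs. Rxfp1 was at 7.46% of the wild type mean, while Gucy1a1, Gucy1b1, Prkg1, Pde5a, Nos2 and Nos3 were at 65.4% to 83.4% of it, and Nos1 was barely detected. All 8 genes lay below every wild type library. Over all 16871 genes tested, the knockout library was below every wild type library for 31.2%, and since the genes were chosen on this contrast nothing is read from the count. Nos1 did not reach the filter of a mean of 0.5 FPKM used for tests across genes, and the other 7 did. On the log2(FPKM + 1) scale, which understates changes of low genes, the median difference of those 7 was -0.26, against -0.01 over all genes tested.

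**Figure D1:**
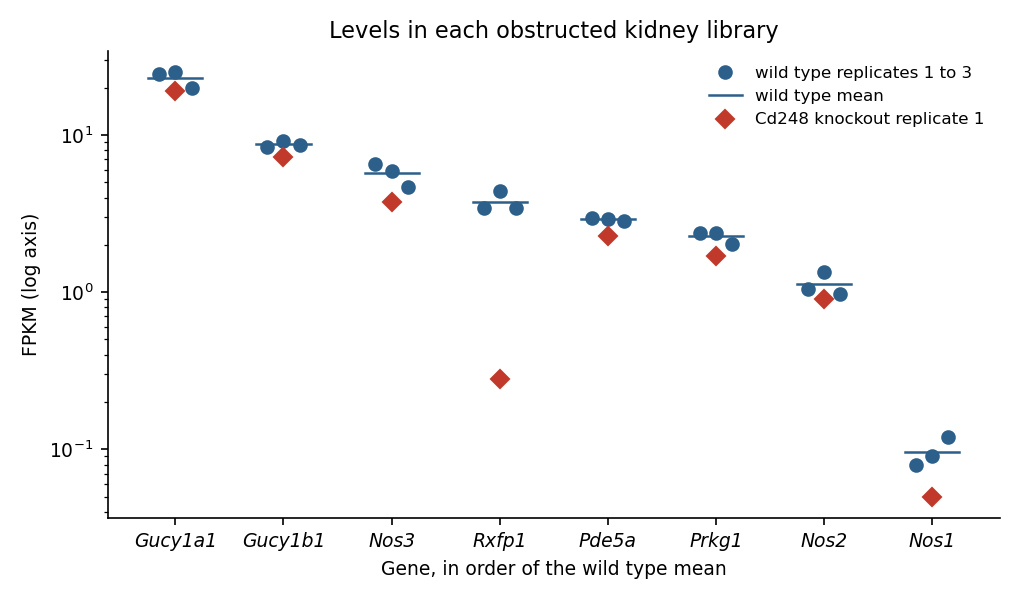
FPKM (log axis) of the 8 genes in each library, ordered by wild type mean; blue points are wild type replicates 1 to 3 from left to right, the line is their mean and the red diamond is the single knockout library. Rxfp1 is at 0.28 FPKM in the KO library and at 3.42 to 4.42 FPKM in wild type, a wider gap than for any other gene drawn.

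Rxfp1 (ENSMUSG00000034009; mm10, chromosome 3, 79641611 to 79737880, minus strand) was at 0.28 FPKM in the KO library. Wild type replicates 1, 2 and 3 were at 3.42, 4.42 and 3.42 FPKM, a mean of 3.75 ± 0.577 FPKM (SD, n = 3). The groups did not overlap, and the wild type mean was 13.4 times the knockout value. The log2(FPKM + 1) difference was -1.89, and -3.33 with a pseudocount of 0.1 FPKM. Of the genes tested, 15 had a lower difference. In wild type, 69.1% to 72.8% of all genes in the table were below Rxfp1, and in the KO library 44% were. The receptor was the fourth of the 8 genes by wild type mean and the seventh in the KO library, where Nos1 alone was lower.

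The intron-derived transcript Gm26984 lies inside Rxfp1 on the same strand, and reads of the pair may not be separable. It was at 0.01 FPKM in the KO library, against 0.28, 0.33 and 0.33 FPKM in replicates 1, 2 and 3 of wild type. The order of the groups was that of the receptor, with the knockout value at the rounding step of the deposited values. Around Rxfp1 the other genes did not stand as low. Within 1 Mb, 9 other genes were tested, and limma's moderated linear model called 0 of them at an adjusted p under 0.05 (background 0.723% of genes tested), with 1 at an unadjusted p under 0.05. Over all genes tested, 10.8% had an unadjusted limma p under 0.05. The differences of the 9 ran from -0.52 to 0.25, with a median of -0.06. The nearest, 4930579G24Rik, an unnamed transcript 8791 bases away, was at 1.67 FPKM in the KO library, against 1.98, 2.23 and 1.76 FPKM in wild type. Etfdh, an electron transfer enzyme of mitochondria 12111 bases away, was at 11.42 FPKM against 9.33, 10.28 and 10.61 FPKM.

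**Figure D2:**
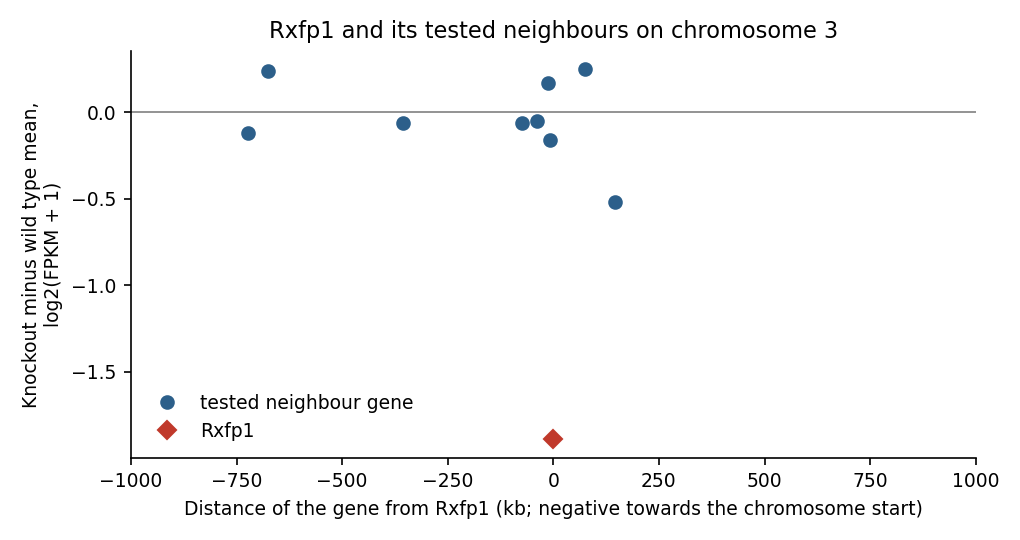
Difference between the KO library and the mean of wild type, log2(FPKM + 1), for Rxfp1 (red diamond) and the 9 tested genes within 1 Mb (blue points), by distance in kb from Rxfp1. The neighbours lie between -0.52 and 0.25, and Rxfp1 lies at -1.89.

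The 5 genes with profiles most like that of Rxfp1 included genes of matrix and contraction. Likeness was the Euclidean distance over the 4 libraries between log2(FPKM + 1) values, each set against the wild type mean of its gene, so it rests mostly on the knockout library. Inhba, an activin subunit, was the nearest (distance 0.16), at 1.43 FPKM in the KO library and 7.22, 8.18 and 6.54 FPKM in wild type. Acta2, the smooth muscle actin of myofibroblasts, followed at 0.17, then Ccn2, a connective tissue growth factor, at 0.22. Col12a1, a fibril-associated collagen, was at 0.34 and the unnamed gene Gm49378 at 0.48. Wild type replicate 2 held the highest of the 3 wild type values for Rxfp1, Inhba, Acta2, Ccn2 and Col12a1, but not for Gm49378. The likeness depends on the pseudocount of 1 FPKM, which compresses the low knockout value of Rxfp1. With a pseudocount of 0.1 FPKM the difference was -3.33 for Rxfp1 and -1.80 for Acta2, so the 2 were not alike in fold change. These genes were picked on the same libraries, and their likeness is a description.

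Soluble guanylate cyclase, the receptor of nitric oxide, is a pair of an alpha and a beta subunit. Gucy1a1, the alpha 1 subunit (ENSMUSG00000033910; chromosome 3, 82092427 to 82145789, minus strand), was the highest of the 8 genes in every library. It was at 19.17 FPKM in the KO library, against 24.35, 25.16 and 19.8 FPKM in replicates 1, 2 and 3 of wild type. Wild type replicate 3 was nearly as low as the knockout library, and the mean of 23.1 ± 2.889 FPKM lay 1.36 SDs above the knockout value. Gucy1b1, the beta 1 subunit (ENSMUSG00000028005; chromosome 3, 82032006 to 82074689, minus strand), was at 7.27 FPKM against 8.34, 9.19 and 8.63 FPKM, a mean of 8.72 ± 0.432 FPKM. As for Gucy1a1, its groups did not overlap, and 31.2% of genes tested also lay below every wild type library. The wild type mean was 3.36 SDs above the knockout value, where an SD of 3 values is itself poorly known.

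The cyclase genes lie in a row on the same strand with 17737 bases between them. Their FPKM ratio, alpha 1 over beta 1, was 2.64 in the KO library and 2.92, 2.74 and 2.29 in wild type. The knockout ratio was inside the wild type range, so the balance of the subunit transcripts did not differ beyond the spread of these libraries. Both differences were small, -0.25 for Gucy1a1 and -0.23 for Gucy1b1, and 13.1% and 14.4% of genes tested had lower ones.

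Prkg1 encodes cGMP-dependent protein kinase I, which relaxes smooth muscle and carries out much of the effect of cyclic GMP. Prkg1 (ENSMUSG00000052920; chromosome 19, 30564489 to 31765033, minus strand) was at 1.69 FPKM in the KO library, against 2.39, 2.37 and 2.03 FPKM in wild type. The difference was -0.28, and the wild type mean of 2.26 ± 0.202 FPKM was 2.83 SDs above the knockout value. Cstf2t, a gene nested in Prkg1 on the opposite strand, was at 10.28 FPKM against 9.83 to 10.03 FPKM. No source used here says whether counting used strand, so reads of the pair may not be separable.

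Pde5a, the phosphodiesterase blocked by sildenafil (ENSMUSG00000053965; chromosome 3, 122728947 to 122859374, plus strand), was at 2.27 FPKM in the KO library. The wild type libraries were at 2.96, 2.94 and 2.83 FPKM, the tightest spread relative to the mean among the 8 genes (2.91 ± 0.070 FPKM). The difference of -0.26 was close to that of the cyclase and kinase genes. With a pseudocount of 0.1 FPKM it was -0.34, against -0.40 for Prkg1 and -0.26 for both Gucy1a1 and Gucy1b1. The knockout value of Pde5a lay 9.14 wild type SDs from the mean, where an SD of 3 close values is itself poorly known.

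The NO synthase genes differed from each other mostly in level. Nos3, the endothelial enzyme (ENSMUSG00000028978; chromosome 5, 24364810 to 24384474, plus strand), was the highest of them. It was at 3.73 FPKM in the KO library, against 6.55, 5.86 and 4.69 FPKM in wild type (5.7 ± 0.940 FPKM). Its difference of -0.49 was next to that of Rxfp1 in size among the tested 7, and 4.27% of genes tested had a lower one. Atg9b, an autophagy gene that overlaps Nos3 on the opposite strand, was at 0.31 FPKM against 1.18, 0.82 and 1.0 FPKM, and shared reads could not be told apart.

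Nos2, the inducible enzyme of macrophages and injured epithelium (ENSMUSG00000020826; chromosome 11, 78920787 to 78960254, plus strand), was at 0.91 FPKM against 1.05, 1.34 and 0.98 FPKM. The wild type mean of 1.12 ± 0.191 FPKM lay 1.12 SDs above the knockout value, a gap of the size of the spread between wild type libraries. Nos1, the neuronal enzyme that macula densa cells also make (ENSMUSG00000029361; chromosome 5, 117781032 to 117958840, plus strand), was at 0.05 FPKM against 0.08, 0.09 and 0.12 FPKM. At 2 decimals these values carry large rounding error, and with depth unknown no fold change is drawn from them.

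In wild type the order by mean was Gucy1a1, Gucy1b1, Nos3, Rxfp1, Pde5a, Prkg1, Nos2 and Nos1. No neighbours in that order overlapped in FPKM range over the wild type libraries. The closest were Nos3, from 4.69 to 6.55 FPKM, and Rxfp1, from 3.42 to 4.42 FPKM. The coefficient of variation between wild type libraries ran from 2.41% for Pde5a to 21.5% for Nos1, with Rxfp1 at 15.4%. In the knockout library the order was the same but for Rxfp1, which came after Nos2.

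Markers of fibroblasts, pericytes and endothelial cells mostly lay below wild type in the same library, though few passed the test. Of 12 fibroblast and myofibroblast markers, 10 lay below every wild type library, where 31.2% of genes tested did. Lum and Dpt lay inside the wild type range. The levels of the 12 summed to 370 FPKM, against 772 to 976 FPKM. Acta2, Tagln, Col1a1, Col1a2 and Col3a1 made up most of the sum in each library. Limma called 2 of the 12 lower, Acta2 and Col1a1 (0.083% of genes tested were called lower), and 0 without wild type replicate 1, 2 or 3. Of 13 pericyte, mesangial and smooth muscle markers, 11 lay below, and limma called 0, with 6 at an unadjusted p under 0.05. Their sum without Ren1, the renin gene, which spread widely within wild type, was 108 FPKM against 136 to 170 FPKM. All 12 endothelial markers lay below, with sums of 193 against 249 to 315 FPKM, and limma called 0, with 5 at an unadjusted p under 0.05. An unadjusted limma p under 0.05 was found for 10.8% of all genes tested. No marker of these lists was at 0 in any library. In whole tissue, fewer cells of a type and less RNA per cell cannot be told apart, and the part of cell makeup in these differences was not tested.

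The genes were also set against markers within each library, a description added after their values were seen. A ratio within a library does not depend on how libraries are scaled. Rxfp1 over Pdgfrb, the receptor of pericytes and fibroblasts, was 0.0103 in the KO library and 0.0839, 0.103 and 0.103 in wild type. Gucy1a1 over Pdgfrb was 0.702 against 0.598, 0.585 and 0.598, higher than in every wild type library. The ratio to Pdgfrb was below every wild type ratio for 2 of the 8 genes, Rxfp1 and Nos1 (3.76% of genes tested). It was above for Gucy1a1, Gucy1b1, Prkg1 and Nos2 (82.1% of genes tested) and inside the wild type range for Pde5a and Nos3. Nos1 was not among the genes tested, and with FPKM at 2 decimals its place below wild type replicate 1 is not resolved.

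Nos3 over Cdh5, the cadherin of endothelial junctions, was 0.249 in the KO library and 0.225, 0.183 and 0.201 in wild type. Cdh5 was the only one of the 12 endothelial markers for which the ratio of Nos3 was above every wild type ratio. The ratio was below every wild type ratio for 5 of them and inside the range for 6. Against Pecam1, another endothelial gene, it was 0.21 and lay inside the wild type values of 0.268, 0.199 and 0.226. The ratio to Cdh5 was above every wild type ratio for 6 of the 8 genes (93.1% of genes tested), inside the range for Nos1 and below it for Rxfp1 alone (1.36% of genes tested). Over all 37 fibroblast, pericyte and endothelial markers, the ratio of Rxfp1 to the marker was below every wild type ratio for 37, as for 0.172% of genes tested. The knockout ratio was 0.0697 to 0.269 of the wild type mean ratio. These 37 ratios share the value of Rxfp1, which was chosen on this contrast. Nothing is read from this count or from the place of Rxfp1 against Pdgfrb or Cdh5. For Gucy1a1, Gucy1b1, Prkg1, Pde5a, Nos1, Nos2 and Nos3 the count below was 1, 1, 6, 3, 19, 1 and 9 of 37. The count above every wild type ratio was 23, 22, 14, 16, 3, 24 and 9 in the same order. Both counts for Nos1, and its place against Cdh5, carry the large rounding error of its low values. Over all genes tested the median count was 0 below and 33 above. Against Acta2, itself lower, the ratio of Rxfp1 was 0.0072 in the KO library and 0.0257, 0.0305 and 0.0263 in wild type.

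**Figure D3:**
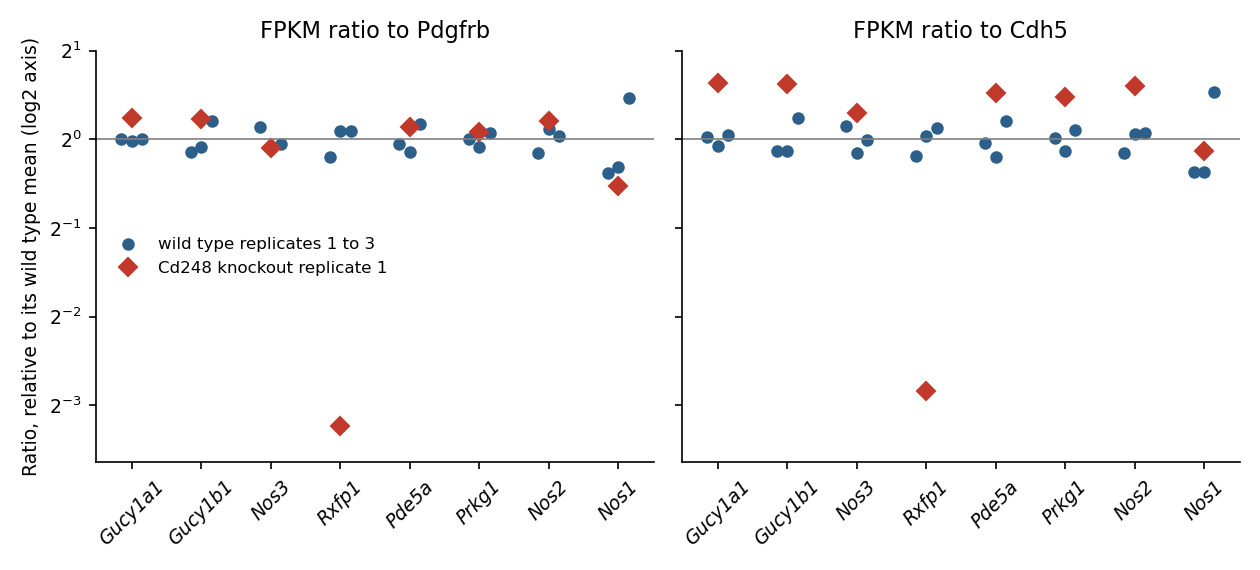
FPKM ratio of each gene to Pdgfrb (left) and to Cdh5 (right) within each library, divided by the wild type mean of that ratio (log2 axis); blue points are wild type replicates 1 to 3, red diamonds the knockout library. Rxfp1 is the gene far below 1 in both panels, while the Gucy1a1, Gucy1b1, Prkg1 and Nos2 diamonds lie above all wild type points in both.

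On 7 lists written by role in the relaxin and cyclic GMP system, which hold none of these 8 genes, no gene passed the test. Of 127 genes on them, 123 were in the table and 89 were tested. Limma called 0 of the 89 at an adjusted p under 0.05 (0.723% of genes tested were called), and the smallest adjusted p was 0.277. At an unadjusted p under 0.05 there were 10, 5 higher and 5 lower, where 10.8% of genes tested had such a p. The knockout library was below every wild type library for 36% of the 89 and above for 23.6%, against 31.2% and 28% of genes tested. Their median difference was -0.04.

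Of 8 other genes of the relaxin family, 2 passed the filter, Insl6 and Insl3, insulin-like peptides known from the testis. Insl6 was at 2.98 FPKM in the KO library against 2.11 ± 0.49 FPKM (SD, n = 3; limma adjusted p = 0.609) and Insl3 at 2.06 FPKM against 1.78 ± 0.46 FPKM (adjusted p = 0.83). Rln1, the relaxin gene, was listed at 0 in the KO library and did not exceed 0.03 FPKM in wild type. Rxfp2, Rxfp3 and Rxfp4, the other receptors of the family, did not exceed 0.13 FPKM in any library.

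RXFP1 signals through G proteins, adenylyl cyclases and protein kinase A as well. Of 26 such genes 23 were tested and 0 passed, with a median difference of -0.11. Gnas, the stimulatory G protein subunit, was at 38.45 FPKM against 41.4 ± 1.19 FPKM (limma adjusted p = 0.712). Prkaca, the catalytic subunit of protein kinase A, was at 22.16 FPKM against 21.7 ± 1.37 FPKM (0.932). The knockout library was below every wild type library for 13 of the 23 (56.5%) and above for 8.7%. Over all genes tested those shares were 31.2% and 28%. With the same FPKM total in each library the median of the 23 was -0.22, and that of all genes tested was -0.11. Adcy4 and Adcy3, adenylyl cyclases, showed the largest differences of those outside the wild type range. Adcy4 was at 2.38 FPKM against 3.47 ± 0.46 FPKM (0.466) and Adcy3 at 2.01 FPKM against 2.92 ± 0.44 FPKM (0.517).

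Among other guanylate cyclases and natriuretic peptides, 5 of 15 genes were tested and 0 passed. Their median difference was 0.15, but -0.02 with no filter, 0.04 with the same FPKM total in each library, 0.05 without wild type replicate 1 and 0.09 without wild type replicate 2. Npr1, the receptor of atrial natriuretic peptide, was at 7.59 FPKM against 9.07 ± 1.47 FPKM (limma adjusted p = 0.72), and Npr3, the clearance receptor, at 5.68 FPKM against 4.87 ± 1.19 FPKM (0.808). Guca2a, the gut and kidney peptide guanylin, was at 3.46 FPKM against 3.03 ± 0.28 FPKM (0.708). The alternative cyclase subunit genes Gucy1a2 and Gucy1b2 did not exceed 0.25 FPKM in any library.

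Downstream of the kinase, 10 of 14 listed genes were tested and 0 passed, with a median of -0.05, or -0.01 without wild type replicate 1 and -0.11 without wild type replicate 3. Mrvi1, the partner through which cGMP kinase I dampens calcium release, had the lowest difference, -0.56 (SE 0.12). It was at 3.87 FPKM in the KO library, against 6.36, 6.57 and 5.62 FPKM in wild type (limma adjusted p = 0.277, between 0.208 and 0.695 over the alternatives). Lrmp, its relative in lymphoid cells, was at 4.64 FPKM against 3.97 ± 0.58 FPKM (0.716). Prkg2, the second cGMP kinase, was at 1.03 FPKM against 1.28 ± 0.45 FPKM (0.848). Vasp, a kinase substrate on actin filaments, was at 38.1 FPKM against 41.7 ± 4.98 FPKM (0.806).

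Of 23 other phosphodiesterase genes 17 were tested and 0 passed, with a median of -0.04, or 0.01 without wild type replicate 1. Pde3a, which breaks down cyclic AMP and is inhibited by cyclic GMP, was at 3.59 FPKM against 5.12 ± 0.49 FPKM (limma adjusted p = 0.412). Pde4b, specific to cyclic AMP, was at 2.79 FPKM against 3.92 ± 0.52 FPKM (0.496). Pde9a, specific to cyclic GMP, was at 3.79 FPKM against 3.22 ± 0.21 FPKM (0.611). Of 12 listed exporters and channels 3 were tested and 0 passed. All 3 lay above every wild type library, where 28% of genes tested did. They include Abcc4 and Abcc5, transporters that export cyclic nucleotides. The difference of Abcc4 was 0.45, or 0.32 with the same FPKM total in each library. Abcc4 was at 18.43 FPKM against 13.3 ± 1.27 FPKM (0.378) and Abcc5 at 12.11 FPKM against 11 ± 0.36 FPKM (0.654).

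Genes that supply or restrain the NO synthases were all 29 tested, and 0 passed. Gchfr, the feedback regulator of tetrahydrobiopterin synthesis, had the highest difference, 0.71 (SE 0.22), at 6.51 FPKM in the KO library and 2.76, 3.8 and 4.35 FPKM in wild type (limma adjusted p = 0.42). Cav1, the caveolin that binds and restrains the endothelial enzyme, was at 9.47 FPKM against 15.09, 17.31 and 12.84 FPKM (adjusted p = 0.391). Arg1, an arginase that competes for arginine, spread widely within wild type, at 43.67, 1.57 and 18.57 FPKM, with the knockout library at 3.44 FPKM inside that range. Ass1, which rebuilds arginine from citrulline, was at 60.48 FPKM in the KO library, against 21.34, 45.43 and 87.38 FPKM in wild type.

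**Figure D4:**
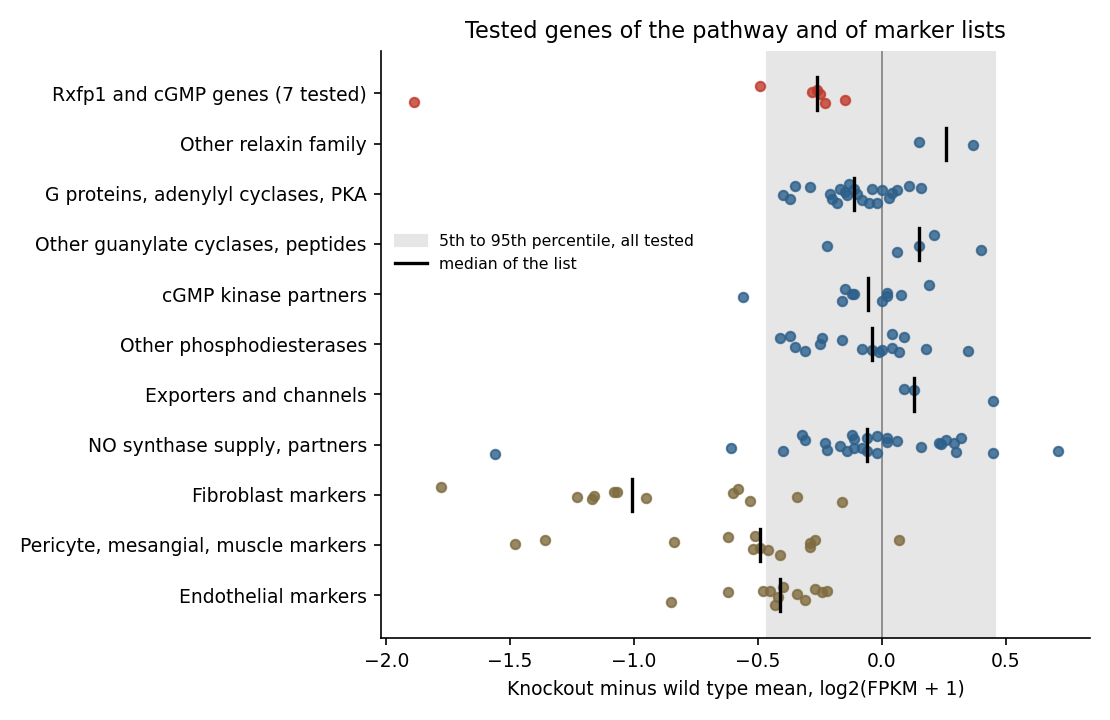
Difference between the KO library and the mean of wild type, log2(FPKM + 1), for each tested gene of the 8 (red), of the 7 pathway lists (blue) and of 3 marker lists (brown); black bars are list medians and the grey band runs from the 5th to the 95th percentile of all genes tested, -0.46 to 0.46. The pathway lists centre between -0.11 and 0.26, and the marker lists centre between -1.01 and -0.41. The 0.26 is the median of only 2 tested relaxin family genes, and it was -0.02 with no filter on low values.

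Pathway annotation in the deposited table gave broader lists, chosen after the file was read, and 3 of their genes passed the test. Without the 8 genes, the cGMP-PKG signalling annotation held 121 tested genes and the relaxin signalling annotation 106, and the lists share genes. Of the first, 1 was lower and 0 higher, Myl9, the myosin regulatory light chain, at 39.9 FPKM against 87 ± 3.61 FPKM (-1.10, SE 0.10, limma adjusted p = 0.0346). Of the second, 2 were lower and 0 higher, Acta2 (-1.78, limma adjusted p = 0.0153) and Col1a1, type I collagen (-1.23, limma adjusted p = 0.0313). Over all genes tested, 0.083% were called lower and 0.64% higher. Medians were -0.09 and -0.12, and the knockout library lay below every wild type library for 50.4% and 53.8% of genes, against 31.2% of all genes tested. None of the 3 calls held without wild type replicate 1, 2 or 3, with adjusted p from 0.108 to 0.119 for Acta2, 0.142 to 0.309 for Col1a1 and 0.165 to 0.303 for Myl9. They also did not hold with immunoglobulin genes left out (0.0598, 0.114 and 0.136 in the same order), and Col1a1 and Myl9 did not with a pseudocount of 0.1 FPKM (0.0651 and 0.0678) or with no filter (0.0613 for each).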

How the data were processed

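RNA was extracted with Trizol, selected on oligo(dT) beads and sequenced on a NovaSeq, per the labels' protocols. cutadapt 1.9, FastQC and HISAT2 2.0.4, with build mm10, are listed without roles per the submitters' processing notes. No source used here names the program that made the FPKM values. The deposited FPKM values are rounded to 2 decimals, and read depth is unknown, so no counting intervals are given. The authors' fold change (a ratio), its log2 and their p-values and q-values in the deposited table were not used.

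Genes were analysed as log2(FPKM + 1). Those averaging 0.5 FPKM or more over 4 libraries were fitted with limma 3.58.1 in R 4.3.3, with a mean-variance trend, two-sided, Benjamini-Hochberg adjusted, threshold 0.05. The fit was also run on simulated data with changes larger than those of most genes here, which gives no error rate for these libraries. The 3 wild type libraries alone supply the spread (2 residual degrees of freedom), which is taken to hold for the knockout library too. Coordinates come from GENCODE M21 (GRCm38, the same assembly as mm10), matched by gene ID for 33572 of 33679 genes.

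The 8 genes and all lists were chosen with earlier results of these data known. By rule, the text names the 8 genes, the called genes of each pathway list and, beside them, the 2 of each such list with the largest difference outside the wild type range, the 5 genes most like Rxfp1 and its 2 nearest tested neighbours. Other named genes, of the pathway, of the deposited annotation and of markers, were added for their known role, after their values were seen. Alternatives were another pseudocount, no filter, 3 scalings, no trend and each wild type library left out.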

Additional observations from a re-analysis of the deposited data

How the results depend on the processing

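On the 7 lists written by role, 0 genes were called under each of the 9 alternatives run. The 8 genes were below every wild type library under the 3 other scalings. The other alternatives cannot change that order, and the genes were chosen on it. The difference of Rxfp1 was -3.33 with a pseudocount of 0.1 FPKM, and ran from -1.94 to -1.79 when 1 wild type library was left out. The number of genes called over the whole table was 122, and it was 39 with a pseudocount of 0.1 FPKM, 205 with no filter and 6 with immunoglobulin genes left out. Leaving out 1 wild type library gave 45 to 73. The cause was not tested. Scaling to the same FPKM total moved the median difference of all genes tested from -0.01 to -0.11, the differences of Gucy1a1 and Gucy1b1 from -0.25 and -0.23 to -0.38 and -0.35, and the median of the 12 endothelial markers from -0.41 to -0.53. The difference of Nos2, -0.15, was -0.08 without wild type replicate 2 and -0.27 with the pseudocount of 0.1 FPKM. No paired analysis was possible because the knockout group had values for 1 library. With 1 knockout library the difference of genotype cannot be told apart from a difference of that library, and depth limits what can be said of Nos1, which was at or under 0.12 FPKM in every library.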

Other observations

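Macula densa cells are the known kidney site of Nos1, and their partners in renin control varied within wild type. Ptgs2, the cyclooxygenase of the macula densa and of injured tissue, was at 0.44 FPKM in the KO library, against 4.58, 2.62 and 1.5 FPKM in replicates 1, 2 and 3 of wild type (limma adjusted p = 0.442). Ren1, the renin gene of juxtaglomerular cells, was at 31.51 FPKM in the KO library, against 226.63, 31.16 and 100.8 FPKM in wild type. The list of macula densa and thick limb markers as a whole had a median difference of 0.05, which became -0.08 with the same FPKM total, with 1 of 7 tested genes below every wild type library and 2 above, Cldn10 and Cldn16, tight junction genes. Cldn10 was at 17.44 FPKM against 9.23, 12.66 and 11.65 FPKM (limma adjusted p = 0.41). The knockout value of Ren1 lay inside the wild type range, close to wild type replicate 2, and that of Ptgs2 lay below it. Macrophage markers, a source of Nos2, had a median difference of 0.01, which became -0.13 with the same FPKM total, and 1 of the 12 was called higher (0.64% of genes tested were), Ly6c2, at 7.44 FPKM against 2.48 ± 0.11 FPKM (limma adjusted p = 0.0275), a call not made when any wild type library was left out, with a pseudocount of 0.1 FPKM, with no filter or with immunoglobulin genes left out.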
